A study of Mus musculus with 2 samples.

Results

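Of the 55487 genes in a single-cell RNA sequencing data set of mouse cecum, 10 genes of the circadian clock are described here: Clock, Per1, Per2, Cry1, Nr1d1, Nr1d2, Dbp, Nfil3, Bhlhe40 and Bhlhe41. They were selected by name, as known parts of the clock and of its output to immune cells, with values in view: they were chosen with earlier Trpv1-ADC against CTRL fold changes of the same mice known, among them lower Bhlhe40 in intraepithelial-type T cells and lower Nfil3 in macrophages of the Trpv1-ADC mice. Those pairs are therefore given as values with no p-value, and a call among them is no support. The adjusted p-values of the other pairs describe these mice and are not independent support. All 10 genes were found in the expression matrix. UMIs (unique molecular identifiers, which count RNA molecules) were summed per mouse and per cell class, and levels are given in CPM (counts-per-million), the gene's share of all UMIs of that class in that mouse.

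The study asked how the state of gut immune cells responds when Trpv1+ neurons, pain-sensing nerve cells, are activated by a designer receptor. CD45+ cells were sorted from the cecum of 2 Trpv1-ADC mice and 2 littermate CTRL mice, all males 101 days old, whose cells carried a hashtag antibody per mouse and went through a single droplet run. All 4 mice had received an AAV vector into the abdomen as newborns and CNO, the ligand of the designer receptor, 7 times on alternate days. The labels name the strains Trpv1-Cre.B6 and Trpv1-WT.B6 without saying which mouse had which, so strain and activation cannot be told apart. The activated neurons are not among the sorted cells, so these data hold no check that the activation worked. The time of day of collection is not given in the sources used here. With 2 mice per group, the smallest p a permutation of mice can give is 0.333.

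The clock is a feedback loop of transcription. Clock and its partner Arntl bind E-box sequences and switch on the period genes Per1 and Per2 and the cryptochrome Cry1, whose proteins then block Clock and Arntl. In a second loop the nuclear receptors Nr1d1 and Nr1d2 repress Arntl, and the activator Dbp and the repressor Nfil3 compete for D-box sequences. Bhlhe40 and Bhlhe41 are repressors that bind E-boxes. Outside the clock, Bhlhe40 is known for its part in cytokine production by T cells and myeloid cells, and Nfil3 for the development of natural killer cells, innate lymphoid cells (ILCs) and type 1 dendritic cells. Per1 is also switched on quickly by cAMP through CRE sequences and by glucocorticoids.

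Sequences upstream of the start sites are shown because clock factors are known to act through such elements. The genes with a call lie at chr6:108660629-108666925 (Bhlhe40, + strand), chr11:69095217-69109960 (Per1, + strand) and chr13:52967209-52981073 (Nfil3, − strand) in GRCm38. RefSeq promoters (GRCm38.p6) were found for 8 of the 10 genes, all but Bhlhe40 and Per2. The 250 bases before each start were searched on both strands for the E-box CACGTG, the D-box TTATGNAA, the CRE half-site TGACGT and the ROR element TAGGTCA. Of all 32851 promoters, 6.02% held the E-box, 3.07% the D-box, 6.47% the CRE half-site and 2.23% the ROR element. Among the 8 genes, Per1, Cry1 and Bhlhe41 held an E-box, Per1 alone held a D-box and a CRE half-site, and Nfil3 alone held a ROR element. A match is a description of letters, not a bound site. Capitals mark the motif in the lines that follow, each 5′ to 3′ on the strand of the gene.
Per1 E-box, chr11:69098763-69098808, + strand, within the gene model and outside exons: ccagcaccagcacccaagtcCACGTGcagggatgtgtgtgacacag
Per1 D-box, chr11:69098905-69098948, + strand, before the same start site: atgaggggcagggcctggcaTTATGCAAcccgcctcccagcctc
Per1 CRE half-site, chr11:69100000-69100045, + strand, before another start site and outside exons: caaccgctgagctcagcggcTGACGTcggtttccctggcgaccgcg
Cry1 E-box, chr10:85185089-85185134, − strand, upstream of the gene model: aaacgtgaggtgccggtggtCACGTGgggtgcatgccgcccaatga
Bhlhe41 E-box, chr6:145865548-145865593, − strand, across the edge of the gene model: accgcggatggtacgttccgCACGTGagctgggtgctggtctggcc
The E-box lay 166 bases before a Per1 start site, 60 bases before the Cry1 start and 153 bases before the Bhlhe41 start. The Per1 D-box lay 24 bases and its CRE half-site 132 bases before a start.

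After filtering, 17519 cells remained, 4165 to 4531 per mouse, with 27586172 to 29905834 UMIs per mouse and a median of 5553 to 5689 UMIs per cell. They fell into 15 cell classes with enough cells in every mouse to test, each with 274455 to 5661171 UMIs per mouse. CTRL mouse 1 stood apart in makeup, with 99 CD4 T-like cells against 294 to 403 in the other mice, and it held 396 of the 559 kept cells that a second tag caller named as doublets. Intraepithelial-type T-like cells (lymphocytes of the gut lining, named from a marker list with Gzma, Gzmb, Cd160 and Itgae) numbered 433 and 555 in CTRL and 264 and 199 in Trpv1-ADC mice. A list of 17 heat shock and dissociation genes, which respond to tissue digestion, moved with the groups: 215 of its 255 gene and class pairs were higher in Trpv1-ADC mice, with a median log2 fold change of 0.54, and edgeR's quasi-likelihood test with Benjamini-Hochberg adjustment called 28 pairs higher and 1 lower. In B-like cells 17 of the 17 genes lay above 0, with a median of 1.35, and in intraepithelial-type T-like cells 10, with a median of 0.09.

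The 10 genes were spread over the cell classes in different ways. Levels of a gene are compared between classes as a description, with no test and as mean ± SD over the 4 mice, and they are not compared between genes. Clock, the activator, was highest in the non-immune cells that came through the sort, at 80.2 ± 3.10 CPM (SD, n = 4), and these did not overlap with the ILC2-like cells, the next class, at 57.8 ± 14.6 CPM. It was lowest in type 2 dendritic-like cells at 24.4 ± 8.44 CPM. In every class from ILC2-like cells downwards, Clock overlapped with the next class in the order. Its partner Arntl was highest in ILC3-like cells, at 169 ± 18.7 CPM.

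**Figure D1:**
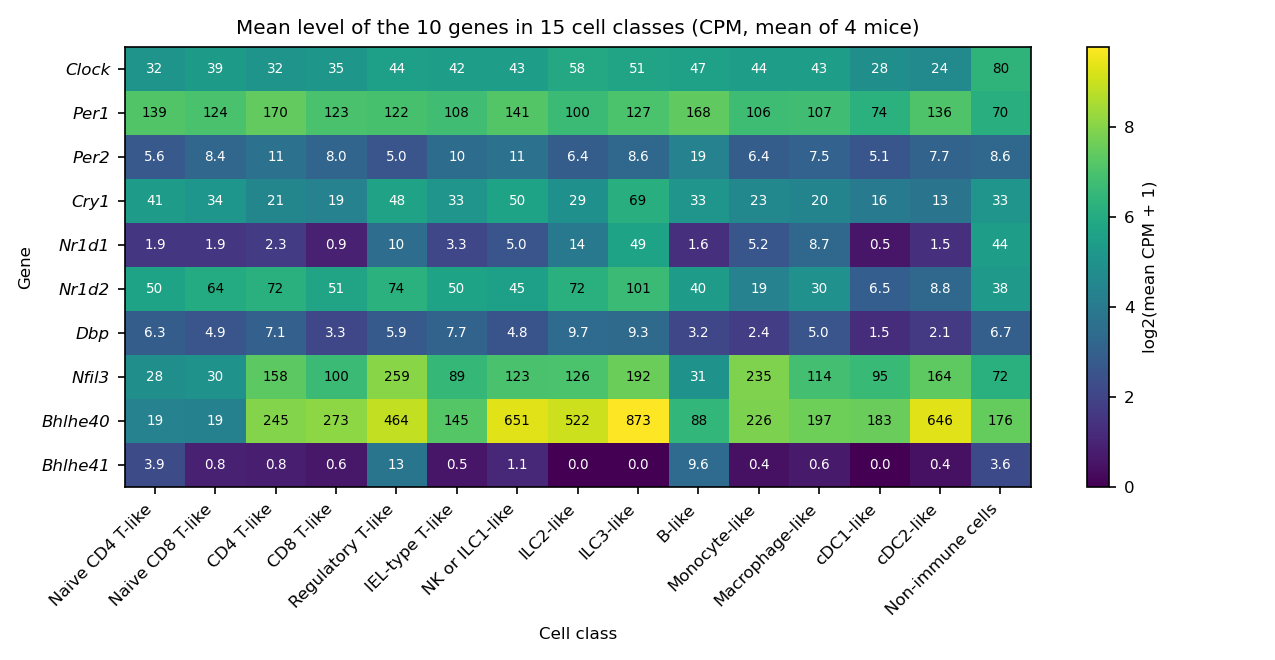
Mean level over 4 mice of each of the 10 genes (rows) in 15 cell classes (columns), printed in CPM and coloured by log2(mean CPM + 1). IEL-type stands for intraepithelial-type, NK for natural killer, and cDC1 and cDC2 for conventional dendritic cells of type 1 and type 2. Bhlhe40 ranged from 18.6 CPM in naive CD8 T-like cells to 873 CPM in ILC3-like cells, and Per1 from 69.7 to 169.6 CPM.

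The period genes had unlike patterns. Per1 was seen in every class, from 69.7 ± 5.83 CPM in non-immune cells to 169.6 ± 27.3 CPM in CD4 T-like cells, with B-like cells just below at 168 ± 5.81 CPM. All 14 neighbouring pairs in its order overlapped, so no class stood apart from the next. Per2 had its highest level in B-like cells, at 20.3, 20.8, 16.2 and 19.2 CPM in CTRL 1, CTRL 2, Trpv1-ADC 1 and Trpv1-ADC 2. The lowest of these lay above every mouse of the next class, CD4 T-like cells at 11.4 ± 0.894 CPM. Per2 was lowest in regulatory T-like cells, at 4.98 ± 1.37 CPM, which rests on 34 UMIs over the 4 mice. Cry1 was highest in ILC3-like cells at 68.5 ± 12.1 CPM and lowest in type 2 dendritic-like cells at 12.6 ± 4.06 CPM, with all 14 neighbours overlapping. In type 3 gamma delta T-like cells, too few to test in every mouse, Cry1 reached 116 ± 27.3 CPM.

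The nuclear receptors of the second loop shared ILC3-like cells, the lymphoid cells that make interleukin 22, as their highest class. Nr1d2 reached 101 ± 20.3 CPM there, with the lowest mouse at 81.0 CPM. That lay above every mouse of the next class, regulatory T-like cells at 73.9 ± 2.57 CPM. The highest mouse reached 91.1 CPM in ILC2-like cells and 83.2 CPM in CD4 T-like cells, within the ILC3-like range. Nr1d2 was lowest in type 1 dendritic-like cells at 6.48 ± 1.10 CPM. Nr1d1 was at 49.4 ± 17.8 CPM in ILC3-like cells and 43.6 ± 18.5 CPM in non-immune cells, and no mouse of either overlapped with the next class, ILC2-like cells at 14.4 ± 8.36 CPM. In the other classes Nr1d1 was sparse, down to 2 UMIs over all mice in type 1 dendritic-like cells (0.524 ± 0.607 CPM). Nr1d1 overlaps Thra on the opposite strand by 1075 bases, and whether strand was used in counting is not given in the sources used here, so reads of the pair could mix.

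The D-box factors ran differently. Dbp was low everywhere, from 1.45 ± 1.31 CPM in type 1 dendritic-like cells to 9.67 ± 4.94 CPM in ILC2-like cells, with 531 UMIs over all tested classes. It overlaps Sphk2 on the opposite strand by 737 bases. Nfil3 was highest in regulatory T-like cells at 259 ± 21.2 CPM, followed by monocyte-like cells at 234.9 ± 62.8 CPM and ILC3-like cells at 192 ± 10.8 CPM. A gap lay between non-immune cells at 71.8 ± 11.7 CPM and B-like cells at 31.2 ± 6.81 CPM, with no overlap between mice. Naive CD8 and naive CD4 T-like cells were at 30.5 ± 3.87 and 27.8 ± 3.27 CPM. B-like and naive T-like cells thus lay below all other tested classes in every mouse.

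Bhlhe40 had 19734 UMIs in the tested classes and fell into 3 levels. The upper one held ILC3-like cells (873 ± 279 CPM), natural killer or ILC1-like cells (651 ± 139), type 2 dendritic-like cells (646 ± 95.2), ILC2-like cells (522 ± 102) and regulatory T-like cells (464 ± 62.6). No mouse of these overlapped with the next class, CD8 T-like cells at 273 ± 61.4 CPM. From there the levels ran without a gap through CD4 T-like, monocyte-like, macrophage-like, type 1 dendritic-like, non-immune and intraepithelial-type T-like cells down to B-like cells at 87.6 ± 7.21 CPM. Naive CD4 and naive CD8 T-like cells lay below a second gap, at 19.2 ± 2.22 and 18.6 ± 4.24 CPM. Its close relative Bhlhe41 followed another order. It was highest in regulatory T-like cells at 12.8 ± 1.75 CPM and B-like cells at 9.61 ± 3.10 CPM, whose mice did not overlap with naive CD4 T-like cells at 3.88 ± 0.530 CPM, and plasma-like cells, too few to test, held 27.6 ± 8.84 CPM. No Bhlhe41 UMI was found in ILC2-like, ILC3-like or type 1 dendritic-like cells, where a count of 0 allows up to 2.18, 1.24 and 0.793 CPM.

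**Figure D2:**
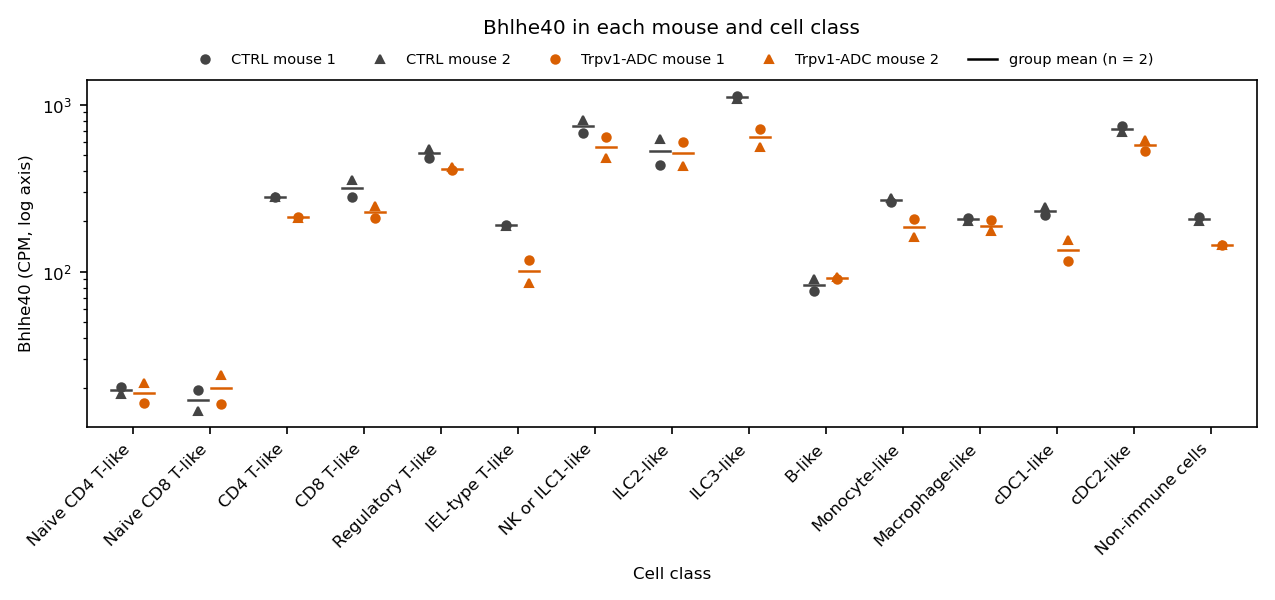
Bhlhe40 level in CPM on a log axis for each mouse in the 15 cell classes, with grey points for CTRL mice, orange points for Trpv1-ADC mice and lines for group means (n = 2). Both Trpv1-ADC mice lie below both CTRL mice in 10 of the 15 classes and above them in 0. Of all gene and class pairs tested, 18.9% lay lower and 20.7% higher without overlap. The 10 include intraepithelial-type T-like cells, a pair known when the gene was chosen. The classes share the same mice and are not replicates, so the count is a description.

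Trpv1-ADC and CTRL mice were then compared within each class with edgeR's quasi-likelihood test. Of 150 gene and class pairs, 106 had enough UMIs to pass the low-count filter. The filter keeps pairs by their UMIs in either group, so these 106 are not all pairs. A negative log2 fold change means a lower level in Trpv1-ADC mice. The log2 fold change was below 0 in 72 of the 106 pairs (67.9%) and above 0 in 34, while 50.0% of all tested gene and class pairs were below 0. The median was −0.11 for the 10 genes. Both Trpv1-ADC mice lay below both CTRL mice in 39 pairs (36.8%, against 18.9% of all 131570 gene and class pairs tested) and above them in 13 pairs (12.3%, against 20.7%). These shares describe the chosen genes, whose choice used some of the values.

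After Benjamini-Hochberg adjustment within a class, 3 of the 106 pairs passed 0.05, 2.83% against 0.889% of all tested pairs. All 3 were lower in Trpv1-ADC mice, a direction in which 0.475% of all pairs were called: Bhlhe40 and Per1 in intraepithelial-type T-like cells and Nfil3 in monocyte-like cells. Bhlhe40 in the first of these was among the pairs known beforehand, so its call is no support. The count of 3 and its share include that pair and are a description. Lower Nfil3 in macrophages was also known beforehand, so the Nfil3 call in monocyte-like cells is not independent of the choice. In all, 23 of the 106 pairs had an unadjusted p under 0.05 by the same edgeR test, the Bhlhe40 pair known beforehand among them. The share of all tested pairs at that level is not given here, so this count too is a description. The other 7 genes had no call in any class.

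**Figure D3:**
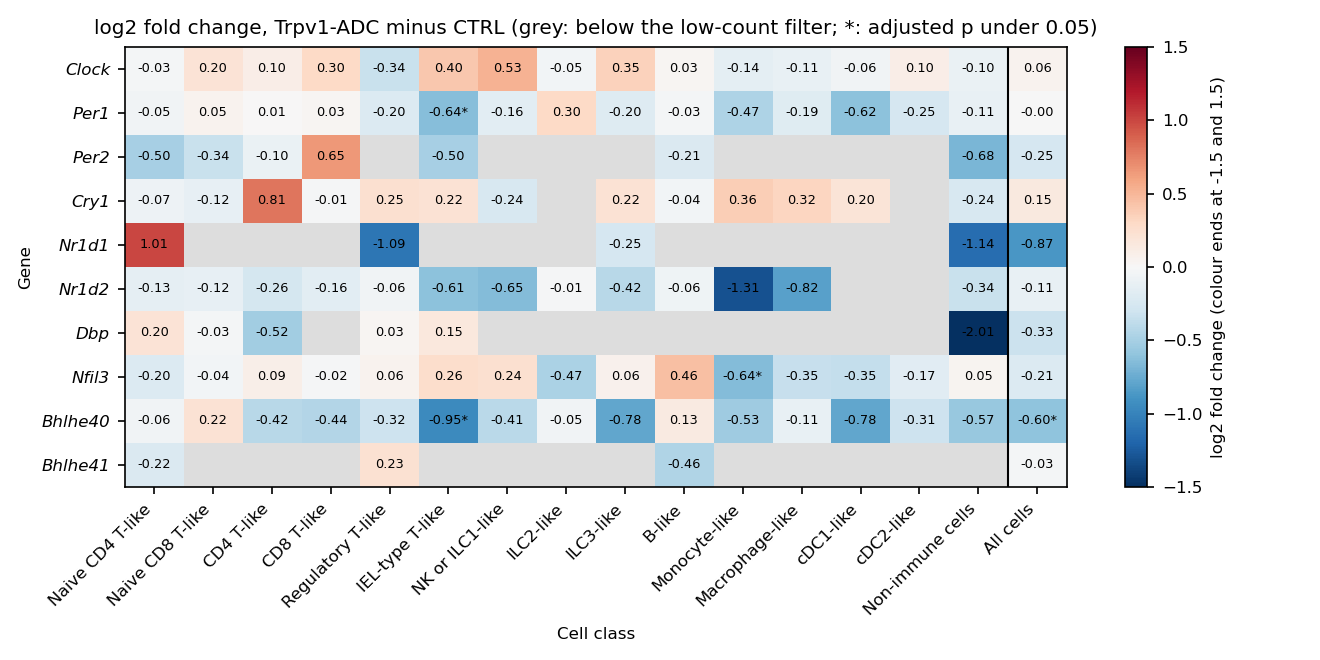
Log2 fold change of Trpv1-ADC over CTRL for each of the 10 genes (rows) in the 15 classes and in all cells summed (columns), from edgeR's quasi-likelihood fits. Grey cells did not pass the low-count filter and asterisks mark an adjusted p under 0.05. The asterisk of Bhlhe40 in intraepithelial-type T-like cells falls on a pair known beforehand and is no support. Values lie below 0 for Nr1d2 in all 13 classes tested and for Bhlhe40 in 13 of 15.

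Bhlhe40 in intraepithelial-type T-like cells was at 190.1 and 188 CPM in the CTRL mice and at 117 and 85.4 CPM in the Trpv1-ADC mice. The group means were 189 ± 1.34 and 101 ± 22.2 CPM (SD, n = 2 each), and the log2 fold change was −0.95 with an SE of 0.16. Both CTRL mice lay above both Trpv1-ADC mice. In this class 3.69% of tested genes were called lower. The class held a pair of clusters, and Bhlhe40 was lower in each. The larger one was led by Kit, Cdh1 and Tspan9, with Cd160 and Cd7 also among its top genes, but not Gzma, Gzmb or Itgae. There Bhlhe40 was at 155 and 164 CPM in CTRL and 110.1 and 71.4 CPM in Trpv1-ADC mice. In the other, led by Gzma and Gzmb, it was at 256 and 230.4 CPM against 139 and 123 CPM. The clusters held 281, 355, 201 and 143 cells, and 152, 200, 63 and 56 cells, in the 4 mice. Their shares moved with the groups. The Gzma and Gzmb cluster made up 35.1% and 36.0% of the class in CTRL and 23.9% and 28.1% in Trpv1-ADC mice. The part of cluster makeup in the class value was not tested.

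Per1 in the same cells was at 128 and 131 CPM in CTRL and at 92.7 and 79.9 CPM in Trpv1-ADC mice, without overlap. It fell by 0.64 on the log2 scale (SE 0.14, adjusted p = 0.0238 by edgeR's quasi-likelihood test with Benjamini-Hochberg adjustment). The call was lost without either CTRL mouse (adjusted p = 0.0781 without CTRL 1 and 0.0653 without CTRL 2), with DESeq2 (0.102) and within either cluster alone (0.0783 and 0.122). Clock was higher in both Trpv1-ADC mice in these cells without passing, at 34.2 and 36.2 CPM in CTRL and 46.7 and 51.1 CPM in Trpv1-ADC mice (log2 fold change 0.40 ± 0.18 SE, edgeR adjusted p = 0.197). Nr1d2 was at 70.5 and 49.7 CPM against 42.2 and 39.0 CPM (−0.61 ± 0.22 SE, edgeR adjusted p = 0.113). In intraepithelial-type T-like cells 3 of the 8 members tested had both Trpv1-ADC mice lower (22.3% of all genes of the class did) and 3 had both higher (32.3% did).

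Other measures moved with the groups in these cells. The summed level of the 17 heat shock and dissociation genes was 20639 and 22030 CPM in CTRL and 29485 and 23180 CPM in Trpv1-ADC mice, with 4 genes of the list called higher and 1, Junb, called lower. Among lists of markers for other cell types, 7 of 25 summed lists lay higher and 6 lower in both Trpv1-ADC mice. The 10 monocyte markers summed to 351 and 336 CPM in CTRL and 241 and 258 CPM in Trpv1-ADC mice. Most of it was Plac8, at 292 and 272 against 189 and 180 CPM. Of the 10 markers, 3 lay lower and 1 higher in both Trpv1-ADC mice. Each had UMIs over the 4 mice together, but Vcan was at 0 in both Trpv1-ADC mice and Chil3 and Thbs1 in Trpv1-ADC 2. The part of these measures in the results was not tested.

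Nfil3 in monocyte-like cells was at 269 and 306 CPM in CTRL and 193 and 172 CPM in Trpv1-ADC mice. It fell by 0.64 on the log2 scale (SE 0.16, adjusted p = 0.0398 by edgeR's quasi-likelihood test with Benjamini-Hochberg adjustment), in a class in which 1.89% of genes were called lower. Lower Nfil3 in macrophages of the same mice was known when the genes were chosen. This call is therefore a description and no independent support. The groups did not overlap, but the call was held in only 5 of 15 alternatives and was lost without CTRL 2 (adjusted p = 0.168) and without Trpv1-ADC 2 (0.132). The makeup of the class moved with the groups. Its cluster led by Chil3, Thbs1 and Plcb1 held 101 and 98 cells in CTRL and 50 and 30 in Trpv1-ADC mice, and the other, led by Acp6 and Chil3, 30 and 10 against 51 and 51. In the first cluster Nfil3 was at 279, 306, 253 and 219 CPM (−0.28, edgeR adjusted p = 0.721). In the second, which had too few cells to test, it was at 223, 300.6, 131 and 143 CPM. Nfil3 lay lower in both Trpv1-ADC mice in each cluster.

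In the monocyte-like class as a whole, the 10 macrophage markers summed to 2769 and 2559 CPM in CTRL and 4389 and 4246 CPM in Trpv1-ADC mice, with 7 of the 10 higher in both Trpv1-ADC mice, 1 lower and none at 0. Apoe led them with 1530 and 1313 against 2527 and 2718 CPM, and C1qb followed the same direction from 68.3 and 56.0 to 340.2 and 219 CPM. The heat shock and dissociation genes summed to 11580 and 13160 CPM in CTRL and 19845 and 21153 CPM in Trpv1-ADC mice. Their part in the Nfil3 result was not tested. In macrophage-like cells themselves Nfil3 was at 119 and 139 CPM in CTRL and 118 and 81.6 CPM in Trpv1-ADC mice, a log2 fold change of −0.35. That pair is among those known when the genes were chosen.

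**Figure D4:**
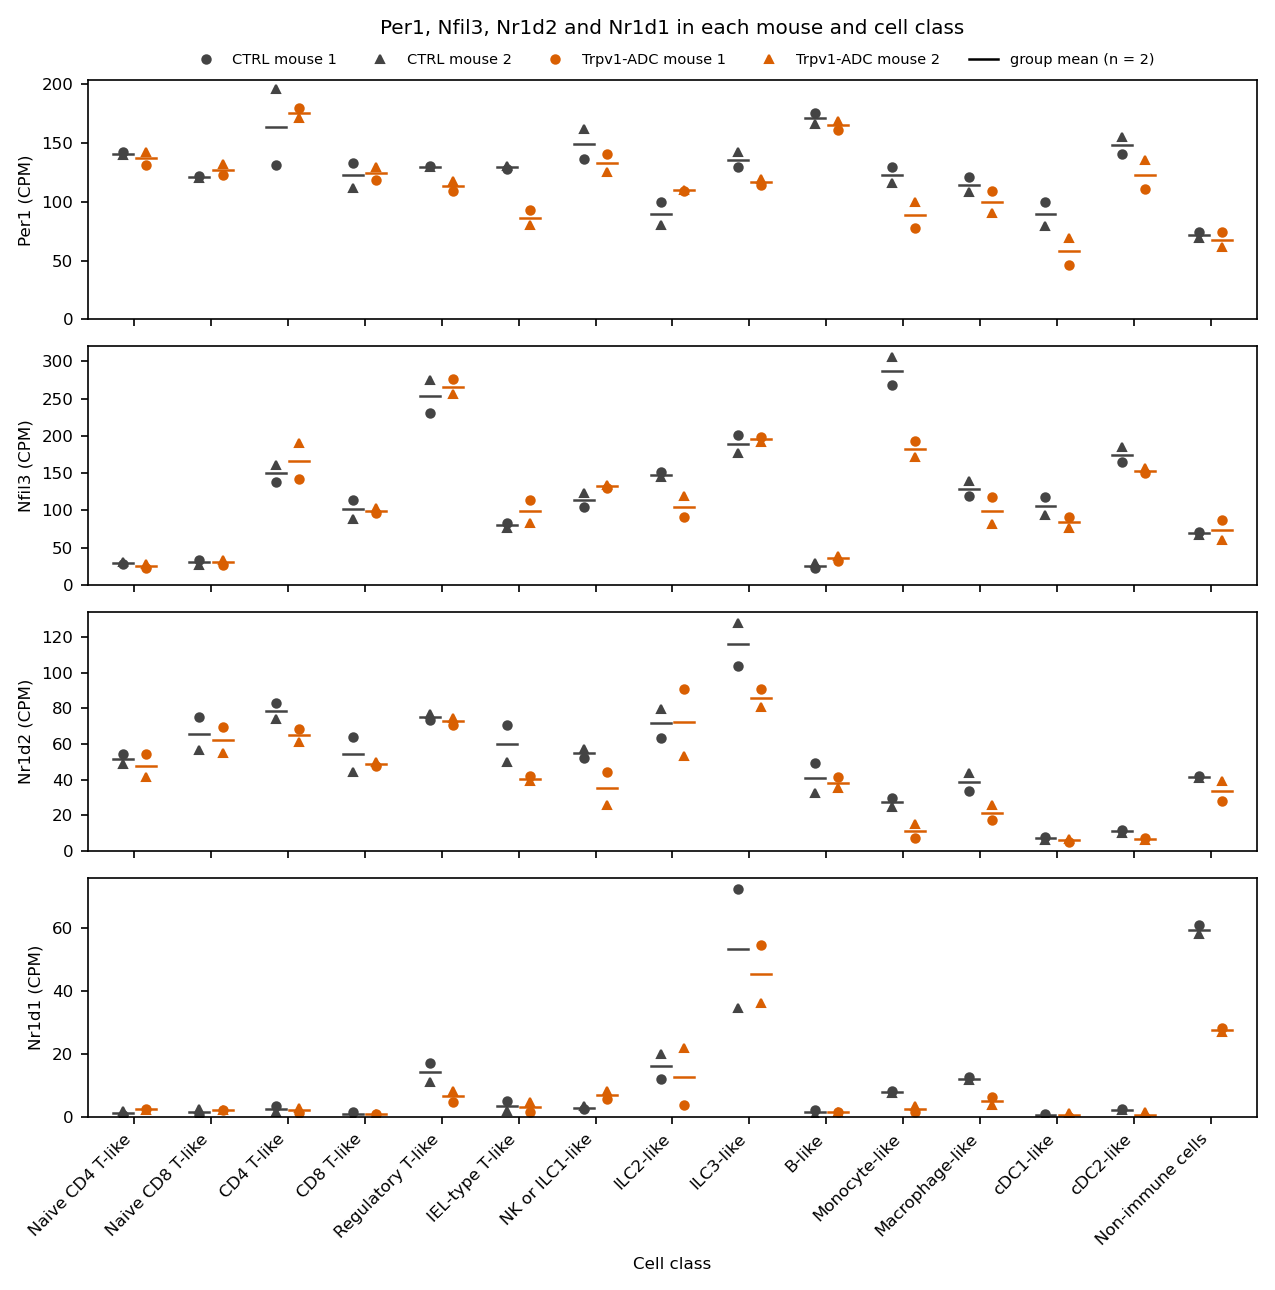
Levels in CPM of Per1, Nfil3, Nr1d2 and Nr1d1 (panels from top to bottom) in each mouse and cell class, with grey points for CTRL mice, orange points for Trpv1-ADC mice and lines for group means (n = 2). Nfil3 in monocyte-like cells and Per1 in intraepithelial-type T-like cells show both Trpv1-ADC mice below both CTRL mice.

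In monocyte-like cells both Trpv1-ADC mice lay below both CTRL mice for 5 of the 6 members tested and above them for 0, where 23.8% of all genes of the class lay below and 24.2% above. Among the 5 was Bhlhe40 at 260.1 and 275 CPM in CTRL against 208 and 160.4 CPM (−0.53 ± 0.17 SE, edgeR adjusted p = 0.113). Nr1d2 was at 29.97 and 24.87 CPM in CTRL and 7.21 and 15.2 CPM in Trpv1-ADC mice (−1.31 ± 0.45 SE, edgeR adjusted p = 0.141), on 59 UMIs over the 4 mice. For Bhlhe40 the clusters differed. In the Chil3, Thbs1 and Plcb1 cluster it was at 289 and 293 CPM in CTRL and 373 and 289 CPM in Trpv1-ADC mice (log2 fold change 0.22, edgeR adjusted p = 0.771), and in the other at 131 and 113 against 38.0 and 79.8 CPM. The part of cluster makeup in the class value was not tested.

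Across the other 13 classes the log2 fold change of Bhlhe40 was below 0 in 11, and both Trpv1-ADC mice lay below both CTRL mice in 8, against 18.9% of all gene and class pairs. In ILC3-like cells, its highest class, it was at 1127 and 1088 CPM in CTRL and 719.5 and 557 CPM in Trpv1-ADC mice (−0.78 ± 0.15 SE, edgeR adjusted p = 0.0604). Here too the clusters differed. A cluster led by Gm4240 and Wdr34, with less Bhlhe40 (392, 111, 225 and 197 CPM), held 6 and 6 cells in CTRL and 36 and 42 in Trpv1-ADC mice. In the cluster led by Upp1 and Rbpms2, with Il23r and Il22, Bhlhe40 was at 1402, 1233, 1142 and 800.2 CPM, and in that led by Fam155a at 1097, 1214, 840.4 and 968 CPM. In the one led by Il22 and Fam234a it was at 961, 884, 471 and 512 CPM. In these last 3 clusters both Trpv1-ADC mice lay below both CTRL mice, and in the Gm4240 cluster the groups overlapped. The Upp1 cluster held 32 and 39 cells in CTRL and 35 and 19 in Trpv1-ADC mice. The Fam155a cluster held 17 and 12 against 16 and 19, and the Il22 and Fam234a cluster 11 and 7 against 4 and 23. None of these clusters had enough cells in every mouse to test. The share of all genes lying apart in them is not given here, so their values are a description. The heat shock and dissociation genes summed to 12856 and 14002 CPM in CTRL and 28529 and 21878 CPM in Trpv1-ADC ILC3-like cells, and 9 of 25 marker lists lay lower, the ILC3 markers among them. Their part in the result was not tested.

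In type 1 dendritic-like cells, which carry Xcr1 and Clec9a, Bhlhe40 was at 218 and 244 CPM in CTRL and 116 and 155 CPM in Trpv1-ADC mice (−0.78 ± 0.20 SE, edgeR adjusted p = 0.0723). In the larger of the clusters of that class, led by Cadm1, it was at 262 and 274 against 122 and 106 CPM, and the log2 fold change was −1.24 (edgeR adjusted p = 0.0104). In the smaller cluster, led by Cst3, the groups overlapped, at 150.3 and 148 against 90.0 and 219 CPM. The heat shock and dissociation list had 14 of 17 genes above 0 in this class, 6 of them called. In CD4 T-like cells Bhlhe40 was at 279 and 278 CPM in CTRL and 213 and 210.0 CPM in Trpv1-ADC mice (−0.42, edgeR adjusted p = 0.524). In regulatory T-like cells it was at 481 and 544 against 405 and 424 CPM (−0.32, edgeR adjusted p = 0.219). Heat shock and dissociation genes lay above 0 for 16 of 17 in CD4 T-like and 15 of 17 in regulatory T-like cells, and their part was not tested. None of these classes passed the threshold as a whole. B-like and naive CD8 T-like cells had log2 fold changes of 0.13 and 0.22, whose sign changed with the settings (down to −0.19 and −0.14).

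Fits of class pairs, added after the data were seen, compared the change in intraepithelial-type T-like cells with that in each of 14 other classes. Each other class had its own fit, with the mouse as a block. The log2 fold change of Bhlhe40 was more negative there than in all 14, with a difference of −1.11 ± 0.21 (SE) to B-like cells. Since Bhlhe40 was chosen with its value in these cells in view, this is a description. That of Per1 was also more negative than in all 14. These cells already held its most negative log2 fold change of the 15 classes, −0.64, so this too is a description. None of these differences passed 0.05 for Per1, the smallest edgeR adjusted p within a class pair being 0.0943, nor for Nfil3, while 0.743% of all gene and class differences did.

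The remaining members gave no call. In the period and cryptochrome branch, Per2 was tested in 7 classes and lay lower in 6, with the smallest unadjusted p in naive CD4 T-like cells, at 5.69 and 7.44 CPM in CTRL against 3.91 and 5.21 CPM (−0.50 ± 0.34 SE, edgeR adjusted p = 0.803). Cry1 was above 0 in 7 of 13 classes and had its smallest unadjusted p in CD4 T-like cells, at 12.1 and 17.1 CPM in CTRL and 28.2 and 27.7 CPM in Trpv1-ADC mice (0.81 ± 0.28 SE, edgeR adjusted p = 0.631). CTRL 1 had 99 cells in that class. Clock was above 0 in 8 of 15 classes with a median log2 fold change of 0.03.

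Nr1d2 was below 0 in 13 of 13 classes, without overlap in 7 (18.9% of all pairs lay lower without overlap), and its median log2 fold change was −0.26. The values ran from −1.31 in monocyte-like cells to −0.056 in regulatory T-like and −0.015 in ILC2-like cells, with no call. The classes share the same 4 mice and are not replicates. Nr1d1 had enough UMIs in 4 classes. In naive CD4 T-like cells it was higher, at 0.742 and 1.86 CPM in CTRL and 2.61 and 2.32 CPM in Trpv1-ADC mice (1.01 ± 0.63 SE, edgeR adjusted p = 0.767), on 32 UMIs. In ILC3-like cells the groups overlapped (−0.25 ± 0.37 SE), and the sign changed without CTRL 1 (0.37) and without Trpv1-ADC 2 (0.08). In non-immune cells, 140 to 190 UMIs per mouse in CTRL and 45 to 47 in Trpv1-ADC mice, it was at 61.0 and 58.2 CPM against 28.2 and 27.1 CPM (−1.14 ± 0.18 SE, edgeR adjusted p = 0.647, in a class in which no gene passed). Among the non-immune clusters it was highest in one led by Ces1d, Mgp and Dcn, genes of fibroblasts, at 127 and 153 CPM in CTRL and 55.7 and 60.8 CPM in Trpv1-ADC mice. Dbp had 23 and 11 UMIs in that cluster in CTRL and 1 and 1 in Trpv1-ADC mice, from 98, 47, 41 and 45 cells. Over all non-immune cells Dbp was at 11.9 and 9.56 against 1.88 and 3.46 CPM (−2.01 ± 0.47 SE, edgeR adjusted p = 0.647). In non-immune cells 7 of the 9 members tested had both Trpv1-ADC mice below both CTRL mice, and none had both above, where 17.3% of all genes of the class lay below and 21.9% above. There 10 of 25 marker lists lay higher and 5 lower in both Trpv1-ADC mice, and their part was not tested. Of the 17 heat shock and dissociation genes, 7 lay above 0 in non-immune cells and none was called. In regulatory T-like cells Nr1d1 was at 17.2 and 11.2 CPM in CTRL and 4.73 and 8.33 CPM in Trpv1-ADC mice (−1.09 ± 0.40 SE, edgeR adjusted p = 0.324). Bhlhe41 was tested in 3 classes, with the smallest unadjusted p in B-like cells (−0.46 ± 0.33 SE, edgeR adjusted p = 0.77).

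Summed over all cells of a mouse, Bhlhe40 was at 243 and 263 CPM in CTRL and 166 and 165 CPM in Trpv1-ADC mice, and its log2 fold change was −0.60 (SE 0.07, edgeR adjusted p = 0.046, where 0.197% of genes were called lower). In such a sum, fewer cells of a type and less RNA per cell cannot be told apart. Naive CD4 and CD8 T-like cells, the classes lowest in Bhlhe40, numbered 705 and 477 cells in CTRL 1, 492 and 369 in CTRL 2, 806 and 660 in Trpv1-ADC 1, and 936 and 910 in Trpv1-ADC 2. The 17 heat shock and dissociation genes summed to 10293 and 11923 CPM in CTRL and 13112 and 14135 CPM in Trpv1-ADC mice. The part of either in the result was not tested. The call was lost without any 1 of the 4 mice, and 8 of the 10 members lay below 0. Nr1d1 was at 11.7 and 8.71 CPM against 5.22 and 5.77 CPM (−0.87 ± 0.18 SE, edgeR adjusted p = 0.0999), and Per1 lay between 123 and 125 CPM in every mouse. When each class was given the same weight, as a mean of log2(CPM + 1) over the 15 classes, both groups were apart for 8 of the 10 members. Of the 4138 genes tested in all 15 classes, which include only 4 of the members, 50.5% were apart. Per1, Per2, Nr1d2, Dbp, Nfil3 and Bhlhe40 were lower in both Trpv1-ADC mice, by 0.16, 0.38, 0.38, 0.43, 0.07 and 0.36 on that scale, and Clock and Bhlhe41 higher by 0.07 and 0.15. The exact two-sided permutation p was 0.333 for each of these 8, the smallest the design allows (0.417 after Benjamini-Hochberg adjustment).

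Genes around the 10 members were counted from lists, to be read against the 0.889% of all gene and class pairs that were called and the 7.16% of genes called in intraepithelial-type T-like cells. The list of 10 other core clock genes, from Arntl and Npas2 to Rora and Hlf, gave 78 gene and class pairs, with 43 above and 35 below 0 and a median of 0.04. edgeR called 0 of them and DESeq2 0, while 14 had an unadjusted p under 0.05 by edgeR. The 14 are given without the share of all pairs at that level, as a description. The smallest edgeR adjusted p-values, picked after they were seen, were 0.0616 for Hlf, a D-box activator, in regulatory T-like cells (57.1 and 35.3 against 15.5 and 26.0 CPM) and 0.0626 for Rora, the receptor that competes with Nr1d1, in intraepithelial-type T-like cells (281 and 325 against 245 and 184 CPM). Of 147 pairs for clock kinases and degradation factors, 2 were called, both in intraepithelial-type T-like cells. Usp2, a deubiquitinase with rhythmic expression, was at 49.5 and 48.0 CPM in CTRL and 24.1 and 8.36 CPM in Trpv1-ADC mice (−1.58 ± 0.32 SE, edgeR adjusted p = 0.0182). Fbxw11, a ubiquitin ligase subunit that marks period proteins for degradation, rose from 84.5 and 86.9 to 121 and 157 CPM (0.62 ± 0.14 SE, edgeR adjusted p = 0.0296). The Fbxw11 call was lost without CTRL 1, CTRL 2 or Trpv1-ADC 2 (adjusted p = 0.153, 0.0801 and 0.0707).

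Among clock output genes, 5 of 98 pairs were called, 1 higher and 4 lower, and 1 of the 4 is the Usp2 call just given. The cell cycle inhibitor Cdkn1a fell in regulatory T-like cells (−0.64, edgeR adjusted p = 0.0282) and in intraepithelial-type T-like cells (−0.72, edgeR adjusted p = 0.0183). Nlrp3, the inflammasome sensor, fell in monocyte-like cells from 338 and 368 to 226 and 239.8 CPM, but was level in the Chil3, Thbs1 and Plcb1 cluster (−0.0092). Wee1, a cell cycle kinase, rose in intraepithelial-type T-like cells from 7.42 and 8.89 to 18.1 and 28.8 CPM. Calls were lost without CTRL 2 for Cdkn1a in both classes (adjusted p = 0.0775 in regulatory and 0.0619 in intraepithelial-type T-like cells) and for Nlrp3 (0.142), without Trpv1-ADC 1 for Cdkn1a in regulatory T-like cells (0.0987) and Nlrp3 (0.132), and without Trpv1-ADC 2 for Wee1 (0.0976).

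The list of genes induced by cAMP or glucocorticoids had 12 of 187 pairs called, 4 higher and 8 lower. Crem, a cAMP-responsive regulator, fell in intraepithelial-type T-like cells from 469 and 476 to 271 and 208 CPM (−1.04 ± 0.15 SE, edgeR adjusted p = 0.00526). Zbtb16 fell there by 0.96 on the log2 scale. Nr4a2, a nuclear receptor induced by cAMP, fell in type 1 dendritic-like cells from 466 and 520.1 to 202 and 238 CPM, and Fosb fell in regulatory T-like cells by 0.57. Not all members moved alike: in intraepithelial-type T-like cells, Ddit4, Fkbp5 and Nr4a1 were called higher. The Fosb call was lost without CTRL 2 (adjusted p = 0.147) and its sign changed in the smaller of the 2 regulatory T-like clusters (0.051). Fkbp5 was lost without CTRL 1, CTRL 2 or Trpv1-ADC 1 (0.334, 0.121 and 0.0641), and Nr4a1 without either CTRL mouse (0.378 and 0.1001).

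Of 78 pairs for cytokine genes tied to Bhlhe40, 3 were called. Il10, which Bhlhe40 is known to repress, fell in regulatory T-like cells from 638 and 774 to 551 and 452 CPM (−0.51, edgeR adjusted p = 0.0378). That call was lost without CTRL 2 (0.475) and without Trpv1-ADC 2 (0.0519), and in the smaller regulatory T-like cluster the log2 fold change was 0.040. Csf2, which Bhlhe40 is known to favour in T cells, rose in intraepithelial-type T-like cells from 5.36 and 6.91 to 17.3 and 24.1 CPM (1.65 ± 0.34 SE, edgeR adjusted p = 0.0197). Maf rose in monocyte-like cells (1.09, edgeR adjusted p = 0.012). Over 15 alternatives its log2 fold change lay between 0.38 and 1.38, and the call was held in 11. Of 60 pairs for genes tied to Nfil3, 2 were called, Zeb2 in intraepithelial-type T-like cells (313 and 295 against 140.2 and 133 CPM) and Id2, a partner in ILC development, in regulatory T-like cells (374 and 421 against 253 and 260.3 CPM). Both were lower.

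Genes with the most similar levels over the 15 classes were found by Pearson's r of log2(CPM + 1), among 6520 genes with a mean of at least 20 CPM. The classes share mice and a droplet run, so r is a description and carries no p. Closest to Bhlhe40 were Fam110a (r = 0.908), Fam129a (0.893), Plscr1 (0.879), Prr13 (0.866) and Runx2 (0.864), and Nfil3 reached 0.854. Closest to Nfil3 were Fam129a (0.914) and Runx2 (0.900), followed by Stx11 (0.887), Map2k3 (0.876) and Cxcl10 (0.870). Per1 was closest to Sp2 (0.925), Ythdf3 (0.876), Usp16 (0.875), Ddx6 (0.868) and Capza1 (0.868), and Dbp to Cbfa2t2 (0.923), Eif4g2 (0.913), Csnk1g2 (0.906), Prickle1 (0.893) and Rab37 (0.889). Bhlhe40 and Bhlhe41 had unlike patterns, with r = −0.29.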

How the data were processed

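The deposited files are a gene by barcode matrix and a hashtag by barcode matrix of raw counts from 1 droplet run, with 23063 barcodes and 174231251 UMIs. Per the submitters' processing notes, Cell Ranger, Seurat and the build mm10 were used. Versions and the use of strand in counting are not given in the sources used here. The protocol mentions a 3′ kit and the design text a 5′ kit.

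The members, gene lists and tests were chosen with earlier results of these data known. A barcode passed (22729 did) with 500 UMIs and 200 genes or more and no more than 10% of UMIs from mitochondria. It was given to a mouse where its top tag had at least 10 counts and at least 3 times the next (19571, with 2997 tag doublets left out). Scrublet (scanpy 1.11.5) then removed 2052. The remaining 17519 cells were clustered by Leiden (leidenalg 0.10.2) with the members and the 10 other core clock genes left out of the variable genes, and clusters were named from marker lists. UMIs were summed per mouse and class, in classes with at least 20 cells in every mouse, and tested with edgeR 4.0.16 (TMM, filterByExpr, robust quasi-likelihood fit) over all genes of a class, with Benjamini-Hochberg adjustment at 0.05. p-values are two-sided and rest on the spread between 2 mice per group, moderated by that of the other genes of the class. The SE of an edgeR fit is the absolute log2 fold change divided by the square root of the test's F. The fits were tested on simulated counts with known changes. All members are named, each with its highest and lowest class, the classes past the threshold and otherwise the class of smallest p; of each list, called genes up to 4 by p are named with values, and for 4 members the 5 most similar genes. Alternatives were DESeq2 1.42.0, RLE scaling, HTODemux of Seurat 5.3.0, other filters and clusterings, and leaving out each mouse.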

Additional observations from a re-analysis of the deposited data

Results flagged for a closer look

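The change of Bhlhe40 between Trpv1-ADC and CTRL mice differed between intraepithelial-type T-like and B-like cells by −1.11 on the log2 scale (SE 0.21). It is listed by a rule on differences between classes. The comparison was added after the data were seen, so the listing is no support. Bhlhe40 was at 190.1 and 188 CPM in CTRL against 117 and 85.4 CPM in Trpv1-ADC intraepithelial-type T-like cells, and at 76.9 and 90.7 against 90.5 and 92.4 CPM in B-like cells. Of the 17 heat shock and dissociation genes, 10 lay above 0 in the first class and 17 in the second, and their part was not tested. The lower value in the first class was known when the gene was chosen, so the difference is a description, and its p is not given.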

How the results depend on the processing

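Over 16 alternatives the log2 fold change of Bhlhe40 in intraepithelial-type T-like cells lay between −1.27 and −0.74. Per1 there stayed past the threshold in 11 of 16, and Nfil3 in monocyte-like cells in 5 of 15. Of 47 named gene and class pairs that were recomputed, 6 changed sign at least once: Bhlhe40 in B-like cells (−0.19 with only tag doublets removed, −0.034 with the stricter cell filter and −0.027 at Leiden resolution 2), Bhlhe40 in naive CD8 T-like cells (−0.11 without Trpv1-ADC 2, in a range up to 0.46 when 1 mouse was left out, −0.14 with only tag doublets removed and −0.017 at resolution 2), Bhlhe40 in the larger monocyte-like cluster (0.22), Fosb and Il10 in the smaller regulatory T-like cluster (0.051 and 0.040), and Nr1d1 in ILC3-like cells (0.37 without CTRL 1 and 0.077 without Trpv1-ADC 2, in a range from −0.66). Bhlhe40 passed the threshold in 7 of 14 alternatives in ILC3-like cells and in 7 of 15 in type 1 dendritic-like cells, and without Trpv1-ADC 1 in monocyte-like cells (edgeR adjusted p = 0.0455). Of the 106 pairs, 3 were called; 8 were called without a low-count filter, and 3 to 6 when 1 mouse was left out, 6 of them without Trpv1-ADC 1. Over all cells 1 member was called, 2 with DESeq2 or without a low-count filter, and 0 without the robust fit, with a stricter cell filter, with equal cell numbers or when any 1 mouse was left out (0 to 0). For the other core clock genes the count of 0 became 5 without a low-count filter, 2 with HTODemux or the stricter cell filter, 1 with only tag doublets removed or at Leiden resolution 2, and 2 to 4 when 1 mouse was left out. The cause of these shifts was not tested. Leaving out a mouse leaves a group of 1, assumed to vary like the other group. Same-numbered mice did not deviate together (correlation 0.0535 over all cells). This cannot show how the mice were matched, and the labels do not say that the numbers pair mice. With the mouse number as a replicate block, 3 member pairs and 1 other core clock pair were called. The class-averaged count does not use the count model, so scaling, tool, filter, robust fit and block have no value there. Of the 10 members 8 kept their highest class by share of cells with a UMI after thinning to 2000 UMIs per cell; Per1 and Dbp did not. Depth limits Dbp, Bhlhe41, Nr1d1 and Per2, with 330 to 931 UMIs each over the tested classes.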
